A study of Mus musculus with 15 samples.

Results

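Chemokines are small secreted proteins that steer leukocyte migration, and their receptors are read here together with them in the heart muscle of mice given doxorubicin. The genes were taken by symbol from the array's annotation: all CC, CXC, CX3C and XC chemokine ligands, their numbered receptors, Ccrl2 and the atypical chemokine receptors (Ackr). This gave 58 of the 19057 genes on the array, of which 36 were ligands and 22 were receptors, with 86 of 45281 probes. The samples were myocardium of male C57Bl/6J mice aged 10 weeks, with 15 arrays in 3 groups of 5. VEGFB_DOX mice (VEGF-B+DOX in the labels) were injected with doxorubicin 7 days after AAV9-VEGF-B, in which a serotype of adeno-associated virus carries VEGF-B, a growth factor of the VEGF family known for its action on the vessels of the heart. DOX mice received doxorubicin, an anthracycline chemotherapy drug known for toxicity to the heart, without the vector. PBS mice received the saline buffer alone. Hearts of all groups were taken 20 hours after the drug or buffer was given. No group received a vector without VEGF-B, nor AAV9-VEGF-B without doxorubicin, so the effect of the vector itself and that of VEGF-B cannot be told apart, and neither can be told apart from a change in the response to the drug.

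In the chemokine system, ligands bind heptahelical receptors on leukocytes and other cells, which signal through inhibitory G proteins, while atypical receptors take ligands up without that signal. Inflammatory ligands such as CCL2, CCL7 and CCL12 recruit monocytes, CXCL1 and its relatives recruit neutrophils, and CXCL9 and CXCL10 recruit activated T cells through CXCR3 and are induced by interferons. Homeostatic ligands such as CXCL12 and CCL21 are made without inflammation, by stromal and endothelial cells and by lymphatic vessels. In the injured heart, CCR2-dependent monocyte entry and CXCL12 signalling through CXCR4 are among the best studied of these routes.

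Values are log2 intensities that already had the same median of 6.92 on every array and ran from 6.52 to 14.93. Only probes above 6.92, the 95% limit of the background, on 5 or more of the 15 arrays entered the tests. Background appeared not to have been subtracted, so folds of dim probes are understated. Of the 86 chemokine and receptor probes 48 were tested, from 35 genes, among 24861 tested probes in all. Ligands held 35 of these probes (24 genes) and receptors 13 (11 genes). Folds are differences between group means on the log2 scale, given with ± their standard error from limma, and each adjusted p is limma's after Benjamini-Hochberg correction over all tested probes. Levels of different probes are not compared.

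The labelled tissue showed its markers: the 7 cardiomyocyte genes tested averaged 13.5 to 14.0 on every array and 0 of them passed the test in any comparison. The Vegfb probe was not higher in the hearts given the vector, at 12.76 ± 0.07 (SD, n = 5) in VEGFB_DOX, 12.98 ± 0.09 in DOX and 12.95 ± 0.07 in PBS, with a fold of VEGFB_DOX against DOX of -0.22 ± 0.06 (adjusted p = 0.0199). Whether the vector's transcript holds this probe's sequence is not given in the sources used here. On the second principal component of all tested probes, PBS 4, PBS 5, DOX 5 and VEGFB_DOX 5 lay at -15.0 to -19.4 and the other arrays at -2.29 to 14.5. Where a call ends or appears without these 4 arrays, the value without them is given. DOX 2 and VEGFB_DOX 3 also stood apart, with means of 3 erythroid genes 0.33 and 0.23 above the PBS mean, while those of the other drug-injected arrays were below it by 0.53 or more. In whole heart RNA, fewer cells of a type and less RNA per cell cannot be told apart.

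The regions just upstream of 5 of the genes are shown because the results describe them closely: Ccl12, Cxcl9 and Cxcl14 each had at least 1 pair of groups that did not overlap, and Ccl8 and Cxcl10 are relatives of the first 2. Cxcl10 had such a pair too, on a probe tested only because of the group in which it was high. So did Ccl6 and Ccl27a, whose windows are not shown and hold no match to the motifs named below. Ccl5, Ccl11, Ccl21c and Cxcl16 also had such a pair, but no promoter window was at hand for them. Each region shown is the 250 bases before the transcription start, from RefSeq on GRCm38.p6, written 5′ to 3′ on the gene's own strand. Capitals mark matches to 4 motifs searched on both strands: the interferon-stimulated response element, spelled as GAAA, any 2 bases and GAAA again, the interferon gamma-activated site TTCNNNGAA, the kappa-B consensus and the TATA box TATAAA.
Ccl12, chr11:82101595-82101844, plus strand: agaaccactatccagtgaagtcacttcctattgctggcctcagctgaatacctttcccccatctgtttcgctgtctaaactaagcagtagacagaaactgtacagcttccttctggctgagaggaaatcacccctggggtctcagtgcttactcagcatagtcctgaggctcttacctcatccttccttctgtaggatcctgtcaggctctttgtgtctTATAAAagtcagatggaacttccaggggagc
Ccl8, chr11:82114935-82115184, plus strand: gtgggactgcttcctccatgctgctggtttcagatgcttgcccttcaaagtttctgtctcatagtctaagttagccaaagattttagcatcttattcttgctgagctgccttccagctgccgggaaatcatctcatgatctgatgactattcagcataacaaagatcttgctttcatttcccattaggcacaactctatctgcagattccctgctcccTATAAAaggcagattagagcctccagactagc
Cxcl9, chr5:92328080-92328329, minus strand: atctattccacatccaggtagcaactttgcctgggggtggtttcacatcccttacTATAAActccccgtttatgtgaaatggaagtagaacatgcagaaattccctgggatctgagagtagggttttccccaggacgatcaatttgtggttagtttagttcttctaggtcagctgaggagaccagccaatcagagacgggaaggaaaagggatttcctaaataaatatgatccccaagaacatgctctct
Cxcl10, chr5:92348890-92349139, minus strand: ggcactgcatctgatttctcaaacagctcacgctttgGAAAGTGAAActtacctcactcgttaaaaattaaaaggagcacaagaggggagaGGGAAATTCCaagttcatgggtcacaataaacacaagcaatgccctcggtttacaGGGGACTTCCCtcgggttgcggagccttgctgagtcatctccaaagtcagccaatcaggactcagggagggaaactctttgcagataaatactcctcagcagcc
Cxcl14, chr13:56296552-56296801, minus strand: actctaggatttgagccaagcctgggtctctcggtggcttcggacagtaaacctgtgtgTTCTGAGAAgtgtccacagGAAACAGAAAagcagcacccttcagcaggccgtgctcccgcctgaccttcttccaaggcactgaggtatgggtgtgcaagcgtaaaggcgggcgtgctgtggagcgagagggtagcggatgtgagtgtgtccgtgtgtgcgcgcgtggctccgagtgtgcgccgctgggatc

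Promoter windows were at hand for 44 of the 58 genes. The TATA box was found in 12 of them and in 12.3% of all 32536 windows. It lay 31 to 26 bases upstream of the start in Ccl12 and 32 to 27 bases upstream in Ccl8, whereas the match in Cxcl9 lay 195 to 190 bases upstream. The kappa-B consensus was found in 11 of the 44 windows and in 7.28% of all windows. In Cxcl10 its matches began 159, 104 and 103 bases upstream, of which the last 2 overlap, and the interferon-stimulated response element lay 213 to 204 bases upstream. That element was found in 3 of the 44 windows (Ccl19, Cxcl10 and Cxcl14) and in 2.98% of all windows. The gamma-activated site was also in 3 windows (Ccl17, Ccr6 and Cxcl14) and in 7.04% of all. In Cxcl14 the gamma-activated site lay 191 to 183 bases upstream and the response element 172 to 163 bases upstream, without overlap. These are letter matches in a short window and not measured binding sites.

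In DOX against PBS, 1 of the 48 tested probes passed an adjusted p of 0.05, an increase of Ccl12, which is 2.08% of them beside 0.322% of all tested probes (0.225% higher, 0.0965% lower). At an unadjusted p under 0.05 there were 11 probes (22.9%, beside 10.3% of all). Of these, 7 were higher (Ccl12 and Ccl7 with 2 probes each, Ccl6, Ccl8 and Ccl9) and 4 were lower (Ccl11, Cx3cl1 and 2 probes of Cxcl12), beside 4.92% and 5.37% of all probes. The groups did not overlap for 2 probes (Ccl12 and Ccl6, both higher, 4.17%, beside 1.93% of all and 0.981% in that direction). The median fold of the 48 probes was -0.03, beside 0.00 for all probes.

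With AAV9-VEGF-B before doxorubicin, 10 of the 48 probes passed the threshold against doxorubicin alone (20.8%, beside 9.59% of all). The 5 that rose were Cxcl9, Cxcl10, Cxcl16, Cxcl12 and the receptor gene Cxcr4 (10.4%, beside 6.42% of all). Of these, the Cxcl10 probe exceeded the background limit on 5 VEGFB_DOX arrays but only 1 DOX and 1 PBS array. It was tested only because of the group in which it was high, here and in the counts below. The 5 that fell were both tested probes of Cxcl14 and 1 probe each of Ccl21a, Ccl21c and Ccl27a (10.4%, beside 3.17% of all). The groups did not overlap for 7 probes (14.6%, beside 7.75% of all). Of these, Cxcl9, Cxcl10, Cxcl16 and Ccl5 were higher (8.33%, beside 5.19%), and Ccl27a and both Cxcl14 probes were lower (6.25%, beside 2.56%). The median fold was 0.03, beside -0.02 for all probes.

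Against PBS, VEGFB_DOX hearts differed at 18 of the 48 probes (37.5%, beside 11.4% of all). The 10 higher probes were 2 each of Ccl12 and Ccl7 and 1 each of Ccl4, Ccl8, Cxcl9, Cxcl10, Cxcl16 and Cxcr4 (20.8%, beside 6.72% of all). The Cxcl10 probe among them was tested only because of the VEGFB_DOX arrays. The 8 lower probes were 2 each of Ccl11, Ccl21c and Cxcl14 and 1 each of Ccl21a and Ccl27a (16.7%, beside 4.71% of all). The groups did not overlap for 8 probes (16.7%, beside 9.70% of all). Cxcl9 and both Ccl12 probes were the 3 higher ones (6.25%, beside 5.46%), and 1 probe each of Ccl11, Ccl21c and Ccl27a and both of Cxcl14 were the 5 lower ones (10.4%, beside 4.24%). The median fold was 0.02, beside -0.01 for all probes. The 3 comparisons share their groups of arrays, so they are not independent of each other.

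**Figure D1:**
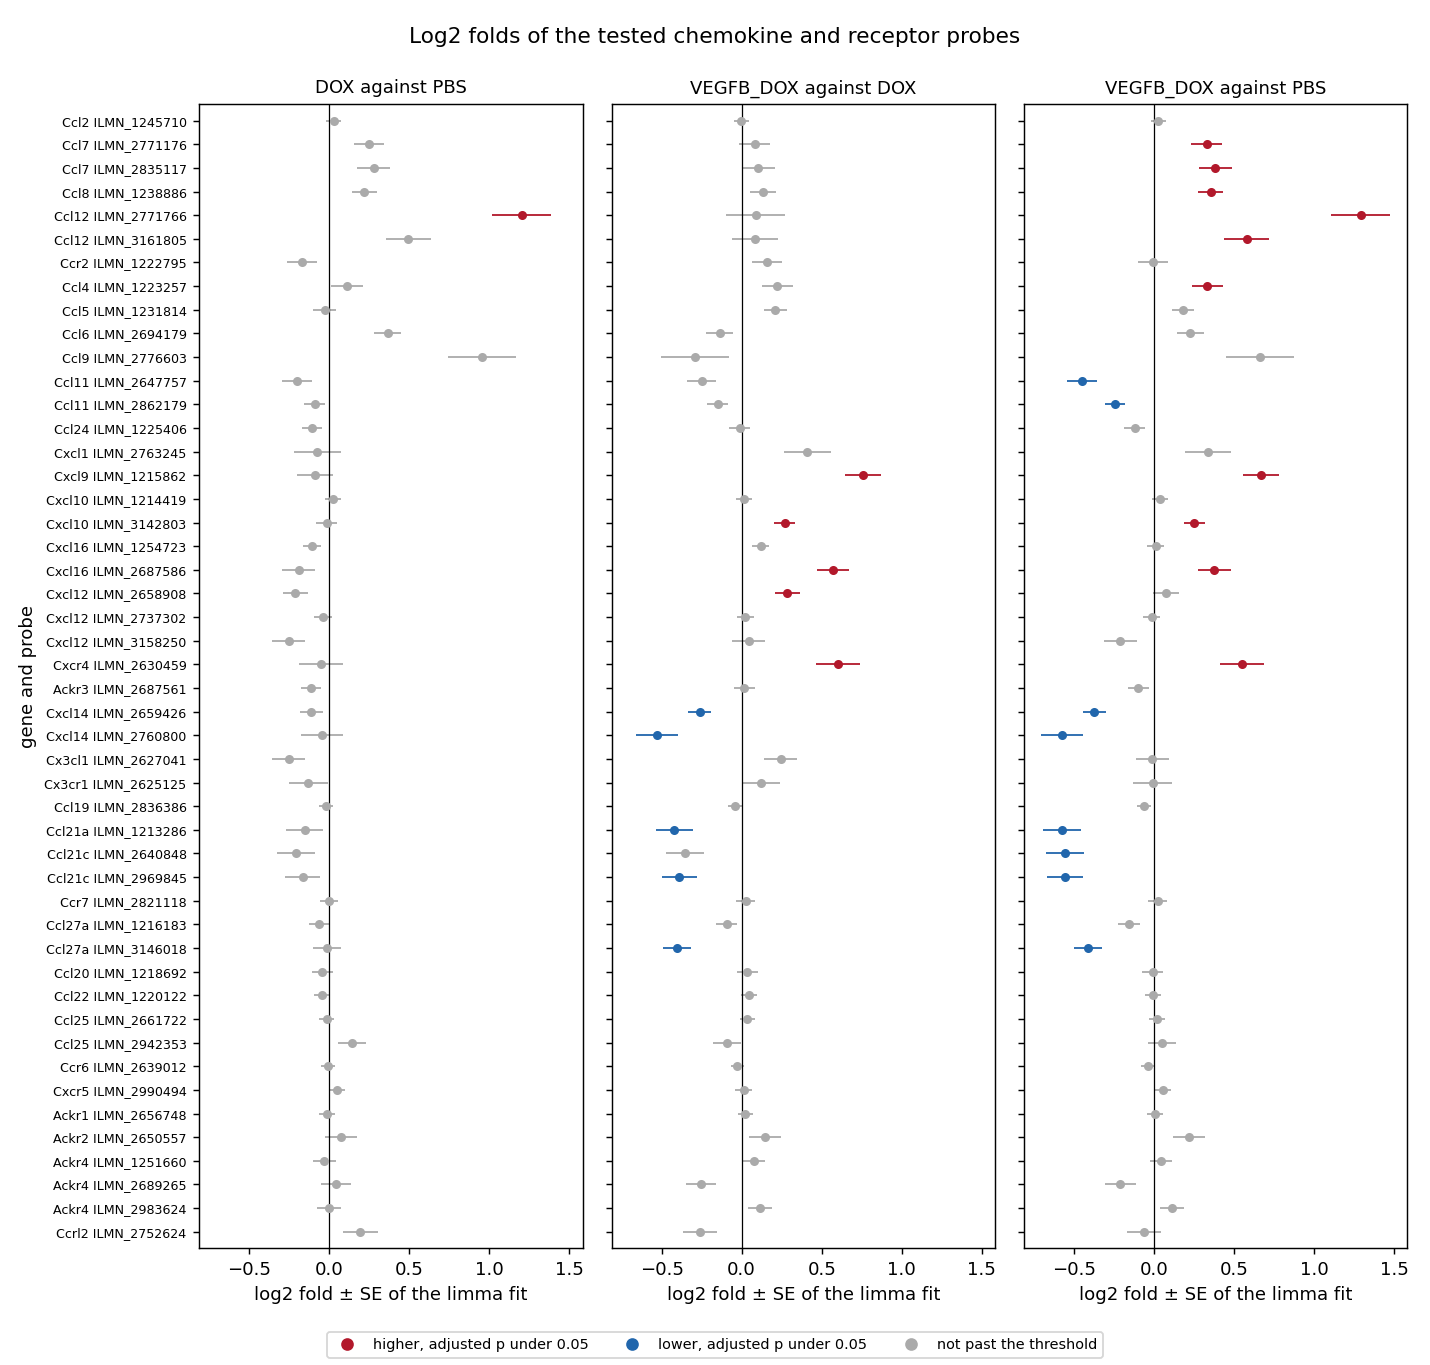
Log2 folds ± standard error (x axis) of the 48 tested chemokine and receptor probes (rows, ordered by role) in the 3 comparisons, with 5 arrays per group. Red and blue mark probes past the adjusted threshold, 1 in DOX against PBS, 10 in VEGFB_DOX against DOX and 18 in VEGFB_DOX against PBS.

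The monocyte chemoattractants encoded side by side on chromosome 11 (Ccl2, Ccl7, Ccl12 and Ccl8, with Ccl11 among them) held the largest difference of DOX from PBS among the 48 tested probes. Ccl12 encodes a mouse CCR2 ligand that attracts monocytes. Its probe ILMN_2771766 read 9.09, 9.29, 8.73, 9.06 and 9.35 on the VEGFB_DOX arrays, 9.02, 8.44, 9.36, 9.10 and 9.16 on the DOX arrays and 8.29, 7.92, 8.08, 7.49 and 7.29 on the PBS arrays. All DOX arrays and all VEGFB_DOX arrays lay above every PBS array, and DOX 2 was the lowest of the drug-injected arrays. The fold of DOX against PBS was 1.20 ± 0.18, or 2.30 times (adjusted p = 0.0101). The fold of VEGFB_DOX against PBS was 1.29 ± 0.18, or 2.45 times (adjusted p = 0.000137). Between VEGFB_DOX and DOX it was 0.09 ± 0.18 (adjusted p = 0.847), with a 95% interval of -0.30 to 0.47. ILMN_3161805, the other Ccl12 probe, averaged 7.70 ± 0.33 in VEGFB_DOX, 7.62 ± 0.27 in DOX and 7.13 ± 0.18 in PBS hearts (SD, n = 5 each). Its fold was 0.49 ± 0.14 for DOX against PBS (adjusted p = 0.165) and 0.58 ± 0.14 for VEGFB_DOX against PBS (adjusted p = 0.0120).

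The Ccl12 call in DOX against PBS ended without DOX 1 (1.20, adjusted p = 0.0533) and without PBS 4, PBS 5, DOX 5 and VEGFB_DOX 5 (0.88, adjusted p = 0.121). It also ended with the background subtracted, where the fold was larger at 1.94 ± 0.37 (3.82 times, adjusted p = 0.0725). ILMN_3161805 passed in this comparison without DOX 2 (0.58, adjusted p = 0.0469), and its background-subtracted fold was 1.55. For VEGFB_DOX against PBS its fold was 0.33 without the 4 arrays apart (adjusted p = 0.123) and 1.74 with the background subtracted, and ILMN_2771766 kept its call throughout, with a background-subtracted fold of 2.05.

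Ccl7 encodes a monocyte chemoattractant that binds CCR2 and other receptors. Its probe ILMN_2771176 read 8.16, 8.21, 7.71, 7.84 and 7.89 on the VEGFB_DOX arrays, 7.78, 7.91, 7.89, 7.70 and 8.12 on the DOX arrays and 7.74, 7.62, 7.62, 7.61 and 7.57 on the PBS arrays. The fold was 0.25 ± 0.10 for DOX against PBS (adjusted p = 0.345) and 0.33 ± 0.10 for VEGFB_DOX against PBS (adjusted p = 0.0306), and the groups overlapped in both. For ILMN_2835117, the other Ccl7 probe, the fold of VEGFB_DOX against PBS was 0.38 ± 0.10 (adjusted p = 0.0205). In DOX against PBS it was 0.28 ± 0.10 (adjusted p = 0.311). With the background subtracted these folds of VEGFB_DOX against PBS were 0.65 (adjusted p = 0.0363) and 1.08 (adjusted p = 0.0620). The ILMN_2771176 call ended without any 1 of VEGFB_DOX 1, VEGFB_DOX 2 and PBS 2 to PBS 5 (0.27 to 0.33, adjusted p from 0.0566 to 0.0980). That of ILMN_2835117 ended without any 1 of VEGFB_DOX 1, VEGFB_DOX 2, PBS 4 and PBS 5 (0.30 to 0.35, adjusted p from 0.0577 to 0.0679). Without the 4 arrays apart together they were 0.32 and 0.29 (adjusted p = 0.0894 and 0.0559).

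Ccl8 encodes a further member of this family. Its single tested probe read 7.33, 7.07, 7.33, 7.22 and 7.33 on the VEGFB_DOX arrays, 7.06, 6.94, 7.18, 7.09 and 7.34 on the DOX arrays and 7.15, 6.90, 6.86, 6.87 and 6.73 on the PBS arrays. All VEGFB_DOX and DOX arrays were above the background limit, but only 1 PBS array, PBS 1, was, so the PBS level is close to background. PBS 1 overlapped both other groups. The fold was 0.35 ± 0.08 for VEGFB_DOX against PBS (adjusted p = 0.00627) and 0.22 ± 0.08 for DOX against PBS (adjusted p = 0.296). With the background subtracted the fold of VEGFB_DOX against PBS was 1.14 (2.21 times, adjusted p = 0.0325), and without the 4 arrays apart it was 0.27 (adjusted p = 0.0553). Ccl2, the best known monocyte chemoattractant, stayed at the background limit, at 6.94 ± 0.08 in VEGFB_DOX, 6.95 ± 0.06 in DOX and 6.92 ± 0.08 in PBS hearts (SD, n = 5 each). Its folds lay between -0.00 and 0.03. Ccr2, encoding the monocyte receptor bound by CCL7 and CCL12, averaged 7.12 ± 0.23, 6.96 ± 0.15 and 7.12 ± 0.11 in VEGFB_DOX, DOX and PBS hearts. It did not pass in any comparison (lowest adjusted p = 0.346).

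Ccl11, which lies between Ccl7 and Ccl12 with no other coding gene between them, moved the other way. It encodes eotaxin, an eosinophil attractant that acts through CCR3. Its probe ILMN_2647757 read 7.16, 7.39, 7.32, 7.34 and 7.45 on the VEGFB_DOX arrays, 7.53, 7.36, 7.77, 7.44 and 7.81 on the DOX arrays and 7.90, 7.69, 7.57, 7.85 and 7.90 on the PBS arrays. All VEGFB_DOX arrays lay below every PBS array, and DOX arrays overlapped both groups. It fell by 0.45 ± 0.09 in VEGFB_DOX against PBS (adjusted p = 0.00355), while the folds of DOX against PBS and of VEGFB_DOX against DOX were -0.20 ± 0.09 and -0.25 ± 0.09 (adjusted p = 0.470 and 0.107). The fold of VEGFB_DOX against DOX passed without DOX 2 (-0.31, adjusted p = 0.0437). ILMN_2862179, the other Ccl11 probe, fell by 0.24 ± 0.06 in VEGFB_DOX against PBS (adjusted p = 0.0185). The background-subtracted folds of VEGFB_DOX against PBS were -1.14 (adjusted p = 0.00915) and -0.90 (adjusted p = 0.0623). The ILMN_2862179 call ended without any 1 of VEGFB_DOX 1, PBS 4 and PBS 5 (-0.23 to -0.20, adjusted p from 0.0521 to 0.0557) and without the 4 arrays apart (-0.13, adjusted p = 0.135). The eosinophil markers Siglecf and Epx were above the background limit on 0 arrays. Of the mast cell markers, Cpa3 passed in no comparison, while Kit, which other cells express too, rose by 1.24 in VEGFB_DOX against DOX and by 0.67 against PBS (adjusted p = 0.000139 and 0.0182), and its part was not tested. Ccl24, encoding a related eotaxin, averaged 7.17 ± 0.07 in VEGFB_DOX, 7.18 ± 0.03 in DOX and 7.29 ± 0.16 in PBS hearts and passed in no comparison.

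**Figure D2:**
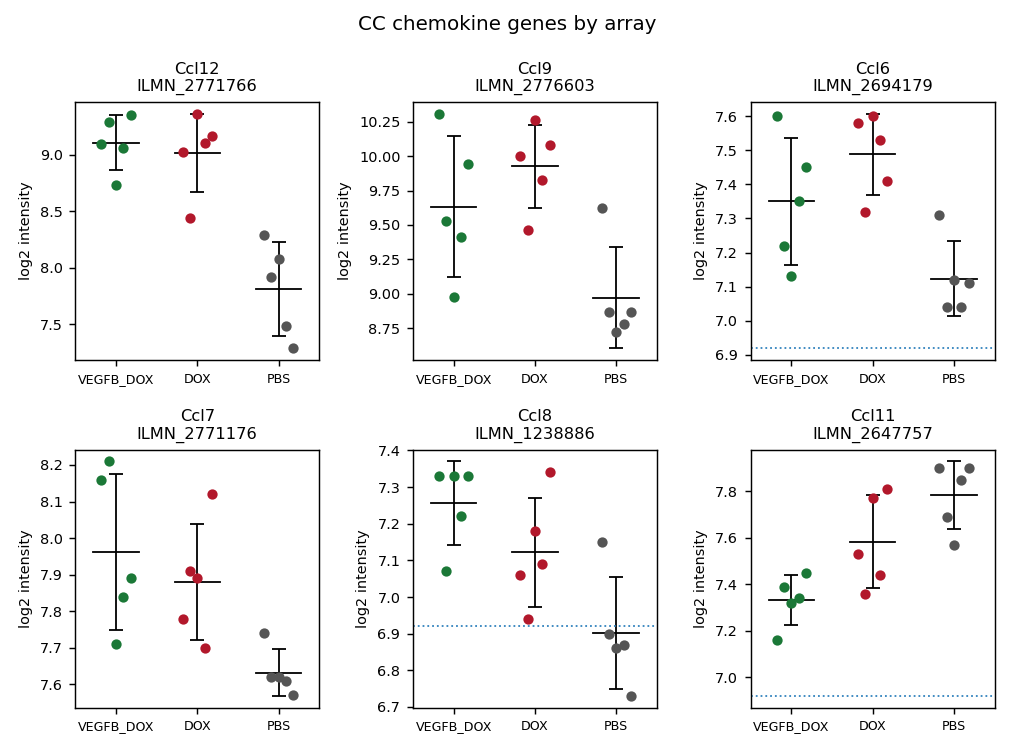
Log2 intensity (y axis) of 1 probe each of Ccl12, Ccl9, Ccl6, Ccl7, Ccl8 and Ccl11 on every array of the VEGFB_DOX, DOX and PBS groups, with the mean and SD of 5 arrays as bars and the background limit of 6.92 dotted where it is in range. Ccl12 reads 8.44 or more on the 10 drug-injected arrays and 8.29 or less on the PBS arrays, and Ccl11 runs the other way in VEGFB_DOX.

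The CCR1 ligands Ccl9 and Ccl6, 2 neighbouring rodent genes expressed by myeloid cells, were higher on most drug-injected arrays but did not pass the adjusted threshold. The Ccl9 probe read 10.31, 9.53, 8.98, 9.41 and 9.94 on the VEGFB_DOX arrays, 10.00, 9.46, 10.26, 9.83 and 10.08 on the DOX arrays and 9.62, 8.87, 8.72, 8.78 and 8.87 on the PBS arrays. PBS 1 stood 0.75 above the next PBS array, and with it the groups overlapped. The fold was 0.95 ± 0.21 for DOX against PBS (1.94 times, adjusted p = 0.0607), -0.29 ± 0.21 for VEGFB_DOX against DOX (adjusted p = 0.476) and 0.66 ± 0.21 for VEGFB_DOX against PBS (adjusted p = 0.0520). For DOX against PBS it passed without PBS 1 (1.12, adjusted p = 0.0288), without DOX 2 (1.07, adjusted p = 0.0147) and without VEGFB_DOX 1 or VEGFB_DOX 3, which enter through the shared spread (0.95, adjusted p = 0.0436 and 0.0332). For VEGFB_DOX against PBS it passed without PBS 1 (0.82, adjusted p = 0.0137), VEGFB_DOX 3 (0.83, adjusted p = 0.0119) or DOX 2 (0.66, adjusted p = 0.0421).

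The Ccl6 probe read 7.60, 7.22, 7.13, 7.35 and 7.45 on the VEGFB_DOX arrays, 7.58, 7.32, 7.60, 7.53 and 7.41 on the DOX arrays and 7.31, 7.04, 7.12, 7.04 and 7.11 on the PBS arrays. Every DOX array lay above every PBS array, by 0.01 at the closest, and the VEGFB_DOX arrays overlapped both groups. The fold was 0.36 ± 0.08 for DOX against PBS (adjusted p = 0.0720) and 0.23 ± 0.08 for VEGFB_DOX against PBS (adjusted p = 0.0961). With the background subtracted the fold of DOX against PBS was 1.32 (2.49 times, adjusted p = 0.112). It passed without DOX 2 (0.41, adjusted p = 0.0212) and without VEGFB_DOX 3 (0.36, adjusted p = 0.0477), and VEGFB_DOX against PBS passed without VEGFB_DOX 3 (0.28, adjusted p = 0.0368).

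S100a8 and S100a9, which encode proteins abundant in neutrophils, were 1.18 and 1.34 higher in DOX than in PBS hearts (adjusted p = 0.0102 and 0.00921), and were 2 of 7 tested neutrophil markers to pass. The other 5 (Lcn2, Csf3r, Mmp9, Retnlg and Camp) had folds of DOX against PBS between 0.01 and 0.28 and passed in no comparison. The mean of the 10 neutrophil markers lay 0.09 to 0.36 above the PBS mean on VEGFB_DOX arrays and 0.22 to 0.45 above it on DOX arrays, against -0.05 to 0.05 on PBS arrays. The mean of the 12 monocyte and macrophage markers on the array lay 0.13 to 0.58 above the PBS mean on VEGFB_DOX arrays and 0.06 to 0.22 above it on DOX arrays, against -0.18 to 0.22 on PBS arrays. Of the 11 tested, 4 (C1qb, C1qc, Fcgr1 and Mertk) rose in VEGFB_DOX against PBS and 0 passed in the other comparisons. PBS 1, the PBS array with the highest Ccl9, Ccl6, Ccl8, Ccl12 (ILMN_2771766) and Ccl7 (ILMN_2771176), was also the PBS array with the highest mean of this list (0.22). VEGFB_DOX 1, the array with the highest Ccl9 and Ccl6 of its group, had the highest neutrophil (0.36) and macrophage (0.58) means of its group. The DOX arrays did not run this way. DOX 2 had the highest macrophage mean of its group (0.22), but its lowest neutrophil mean (0.22), Ccl9 (9.46) and Ccl6 (7.32). DOX 3, with the highest Ccl9 (10.26) and Ccl6 (7.60) of the group, had means of 0.24 for neutrophils and 0.10 for macrophages. The part of these lists in the chemokine differences was not tested.

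Ccl4 and Ccl5 encode inflammatory ligands that attract monocytes and T cells. The Ccl4 probe read 7.50, 7.76, 7.32, 7.41 and 7.56 on the VEGFB_DOX arrays, 7.15, 7.39, 7.09, 7.25 and 7.55 on the DOX arrays and 7.40, 7.18, 6.99, 7.28 and 7.03 on the PBS arrays. The fold of VEGFB_DOX against PBS was 0.33 ± 0.10 (adjusted p = 0.0336) and the groups overlapped. With the background subtracted it was 1.19 (adjusted p = 0.0680). The call ended without any 1 of VEGFB_DOX 1, 2 and 5 and PBS 2, 3 and 5 (0.27 to 0.34, adjusted p from 0.0583 to 0.105) and without the 4 arrays apart (0.31, adjusted p = 0.0983). The Ccl5 probe read 7.24, 7.50, 7.19, 7.19 and 7.17 on the VEGFB_DOX arrays, 7.09, 7.08, 6.93, 7.06 and 7.08 on the DOX arrays and 7.29, 7.15, 6.98, 6.99 and 6.97 on the PBS arrays. All VEGFB_DOX arrays lay above every DOX array, yet the fold of 0.21 ± 0.07 had an adjusted p of 0.0723. It passed without PBS 1 (0.21, adjusted p = 0.0452), as did the fold of VEGFB_DOX against PBS (0.24, adjusted p = 0.0314, against 0.18 and 0.113 with all arrays).

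Cxcl9, which encodes an interferon-inducible CXCR3 ligand, was higher in VEGFB_DOX hearts than in both other groups. The Cxcl9 probe read 8.77, 9.13, 9.19, 9.24 and 9.32 on the VEGFB_DOX arrays, 8.30, 8.46, 8.39, 8.27 and 8.44 on the DOX arrays and 8.69, 8.75, 8.28, 8.31 and 8.27 on the PBS arrays. All VEGFB_DOX arrays lay above every array of the other groups, whose values overlapped. Cxcl9 rose by 0.76 ± 0.11 against DOX (1.69 times, adjusted p = 0.000176) and by 0.67 ± 0.11 against PBS (1.59 times, adjusted p = 0.000605). These calls held in every one of the 28 alternatives tried, with folds against DOX of at least 0.71 without any 1 array. The 28 include the looser threshold of 0.1, which cannot end a call. The fold of DOX against PBS was -0.09 ± 0.11 (adjusted p = 0.855). The Cxcl10 probe ILMN_3142803 read 7.07, 7.08, 7.32, 7.02 and 7.22 on the VEGFB_DOX arrays, 6.76, 6.82, 7.00, 6.88 and 6.91 on the DOX arrays and 7.11, 6.90, 6.81, 6.87 and 6.76 on the PBS arrays. Only 1 DOX and 1 PBS array exceeded the background limit, while all 5 VEGFB_DOX arrays did. This probe was therefore tested only because of the group in which it was high, its difference is no independent support for the rise of Cxcl9, and it was not tested where 10 arrays above the limit were required.

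Cxcl10 rose by 0.27 ± 0.07 against DOX (adjusted p = 0.0150), without overlap, but not without both DOX 2 and VEGFB_DOX 3 (0.21, adjusted p = 0.0801). It rose by 0.25 ± 0.07 against PBS (adjusted p = 0.0187), where PBS 1 overlapped. The background-subtracted folds were 0.82 (adjusted p = 0.0402) and 0.68 (adjusted p = 0.0798). The call against PBS ended without VEGFB_DOX 3 (0.21, adjusted p = 0.0510), without PBS 5 (0.22, adjusted p = 0.0560) and without the 4 arrays apart (0.18, adjusted p = 0.184). ILMN_1214419, the other tested Cxcl10 probe, stayed at background (6.93 ± 0.06, 6.91 ± 0.08 and 6.89 ± 0.10 in VEGFB_DOX, DOX and PBS) and passed in no comparison. Cxcl11, the other ligand of CXCR3, and Cxcr3 itself had no probe above the limit on enough arrays.

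Beside these genes, 3 of 7 tested interferon-response markers (Ifit3, Oasl2 and Usp18) were higher in DOX than in PBS hearts, 1 (Rsad2) was higher in VEGFB_DOX than in DOX, and 6 were higher in VEGFB_DOX than in PBS. The mean of the 8 such markers on the array, with the untested Ifit1, lay 0.72 to 1.29 above the PBS mean on VEGFB_DOX arrays. It lay 0.25 to 1.21 above it on DOX arrays, against -0.16 to 0.19 on PBS arrays. DOX 2 had the lowest such mean of its group (0.25) and also its lowest Ccl12, Ccl9, Ccl6 and Ccl8. Its Ccl7 readings were not low, at 7.91 (ILMN_2771176) and 7.67 (ILMN_2835117), beside DOX means of 7.88 and 7.63. The part of the interferon response in the chemokine differences was not tested. Of the T and NK cell markers, 3 were tested and 0 passed, and the mean of the 8 on the array lay between 6.80 and 6.95 on all arrays, at background.

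Cxcl16 encodes a membrane-bound ligand of CXCR6. Its probe ILMN_2687586 read 8.70, 8.71, 8.76, 8.52 and 8.78 on the VEGFB_DOX arrays, 8.07, 8.29, 7.77, 8.14 and 8.35 on the DOX arrays and 8.56, 8.27, 8.28, 8.14 and 8.33 on the PBS arrays. All VEGFB_DOX arrays lay above every DOX array, and PBS 1 overlapped the lowest VEGFB_DOX array. The gene rose by 0.57 ± 0.10 against DOX (1.48 times, adjusted p = 0.00108), and its fold against PBS was 0.38 ± 0.10 (adjusted p = 0.0202). The call against DOX held in all 28 alternatives, with a background-subtracted fold of 0.87. The call against PBS ended without PBS 4 (0.33, adjusted p = 0.0621), without the 4 arrays apart (0.30, adjusted p = 0.123) and with the background subtracted (0.55, adjusted p = 0.0544). ILMN_1254723, the other probe, had smaller folds, 0.12 ± 0.05 against DOX (adjusted p = 0.208) and 0.01 ± 0.05 against PBS (adjusted p = 0.944). With the background subtracted these were 0.54 (1.46 times, adjusted p = 0.152) and 0.05 (adjusted p = 0.964). Cxcr6 was not above background.

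Cxcr4, the receptor of CXCL12 on leukocytes and endothelium, was the only receptor gene of the 11 tested with a probe past the threshold in the model of group means on all 15 arrays. Its probe read 8.15, 8.25, 8.34, 8.07 and 7.73 on the VEGFB_DOX arrays, 7.41, 8.04, 7.49, 7.30 and 7.29 on the DOX arrays and 7.73, 7.58, 7.56, 7.69 and 7.24 on the PBS arrays. The groups overlapped through DOX 2, which read 0.55 above the next DOX array, and VEGFB_DOX 5 read the same as PBS 1. Cxcr4 rose by 0.60 ± 0.14 against DOX (1.52 times, adjusted p = 0.00829) and by 0.55 ± 0.14 against PBS (1.46 times, adjusted p = 0.0133). The fold of DOX against PBS was -0.05 ± 0.14 (adjusted p = 0.944). Against DOX the call held in all 28 alternatives, with folds of 0.54 to 0.74 when 1 array was left out and 1.29 (2.45 times) with the background subtracted. Against PBS it ended with the background subtracted (1.12, adjusted p = 0.0559).

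Its ligand gene Cxcl12 gave different results with its 3 tested probes. ILMN_2658908 read 12.21, 12.49, 12.31, 12.36 and 12.22 on the VEGFB_DOX arrays, 11.93, 12.06, 11.86, 12.09 and 12.22 on the DOX arrays and 12.11, 12.42, 12.25, 12.20 and 12.24 on the PBS arrays. This probe rose by 0.29 ± 0.08 in VEGFB_DOX against DOX (1.22 times, adjusted p = 0.0273), where the groups overlapped, and did not pass against PBS (0.07 ± 0.08, adjusted p = 0.649). The fold of DOX against PBS was -0.21 ± 0.08 (adjusted p = 0.319). The call against DOX ended without any 1 of VEGFB_DOX 2, VEGFB_DOX 4, DOX 1 and DOX 3 (0.24 to 0.28, adjusted p from 0.0588 to 0.0860) and in the fit of those 2 groups alone (0.29, adjusted p = 0.0501). The other 2 probes had folds of 0.02 and 0.04 in the same comparison (adjusted p = 0.862 and 0.865). Ackr3, the atypical receptor that takes up CXCL12, averaged 7.26 ± 0.10 in VEGFB_DOX, 7.25 ± 0.12 in DOX and 7.36 ± 0.08 in PBS hearts and passed in no comparison.

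Cxcl14, Ccl21a, Ccl21c and Ccl27a, homeostatic ligand genes, fell in VEGFB_DOX hearts. Cxcl14 encodes a chemokine made by epithelia and other tissues at rest. Its probe ILMN_2760800 read 7.76, 7.88, 7.81, 7.75 and 7.92 on the VEGFB_DOX arrays, 8.22, 8.56, 8.17, 8.52 and 8.28 on the DOX arrays and 8.93, 8.23, 8.05, 8.58 and 8.19 on the PBS arrays. The VEGFB_DOX arrays did not overlap the others, all being lower. Against DOX it fell by 0.53 ± 0.13 (0.69 times, adjusted p = 0.0146). Against PBS it fell by 0.57 ± 0.13 (0.67 times, adjusted p = 0.00729). The background-subtracted folds were -0.90 and -0.95, and without both DOX 2 and VEGFB_DOX 3 the call against DOX ended (-0.47, adjusted p = 0.0609). The other tested probe, ILMN_2659426, fell by 0.26 ± 0.07 against DOX (adjusted p = 0.0252), and its fold against PBS was -0.37 ± 0.07 (adjusted p = 0.00199), again with no overlap. With the background subtracted its folds were -1.06 and -1.40. Its call against DOX ended without any 1 of VEGFB_DOX 3, VEGFB_DOX 4, DOX 4 and DOX 5 (-0.26 to -0.22, adjusted p from 0.0507 to 0.0760). The folds of DOX against PBS were -0.05 and -0.11 and passed for neither probe.

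Ccl21a and Ccl21c are near-identical copies of the CCL21 gene, whose product, made by lymphatic endothelium, guides dendritic cells and T cells through CCR7, so their probes may read the same transcripts. The Ccl21a probe read 9.39, 9.71, 9.18, 9.78 and 9.51 on the VEGFB_DOX arrays, 9.94, 10.16, 9.76, 9.94 and 9.87 on the DOX arrays and 10.22, 10.03, 9.76, 10.16 and 10.27 on the PBS arrays. The lowest DOX and PBS value, 9.76, was overlapped by VEGFB_DOX 4 alone. Ccl21a fell by 0.42 ± 0.12 against DOX (adjusted p = 0.0277) and by 0.57 ± 0.12 against PBS (0.67 times, adjusted p = 0.00313). The 2 Ccl21c probes fell by 0.56 ± 0.12 and 0.55 ± 0.11 against PBS (adjusted p = 0.00434 and 0.00280). Against DOX their folds were -0.35 ± 0.12 (adjusted p = 0.0725) and -0.39 ± 0.11 (adjusted p = 0.0323).

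The calls against DOX depended on single arrays. That of Ccl21a ended without any 1 of VEGFB_DOX 1, VEGFB_DOX 3, DOX 1, DOX 2 and DOX 4 (-0.42 to -0.34, adjusted p from 0.0572 to 0.0784), and without both DOX 2 and VEGFB_DOX 3 the fold was -0.28 (adjusted p = 0.149). That of Ccl21c ILMN_2969845 ended without any 1 of VEGFB_DOX 1 to 3, DOX 2, DOX 4 and DOX 5 (-0.40 to -0.33, adjusted p from 0.0540 to 0.0894), while Ccl21c ILMN_2640848 passed without DOX 5 (-0.42, adjusted p = 0.0319) and without the 4 arrays apart (-0.41, adjusted p = 0.0460). Without the 4 arrays apart Ccl21a was at -0.43 against DOX (adjusted p = 0.0537) and -0.49 against PBS (adjusted p = 0.0505), and Ccl21c ILMN_2969845 was at -0.37 against DOX (adjusted p = 0.0548). Both Ccl21c probes kept their calls against PBS throughout. Ccl19, the other CCR7 ligand gene and the neighbour of Ccl21a, averaged 7.04 ± 0.07, 7.08 ± 0.05 and 7.10 ± 0.04 in VEGFB_DOX, DOX and PBS hearts and passed in no comparison, and Ccr7 averaged 6.99 to 7.01 in each group. Among 4 markers of lymphatic endothelium, Prox1 fell by 0.44 in VEGFB_DOX against DOX and Lyve1 rose by 0.62 in VEGFB_DOX against PBS. The mean of the 4 differed from the PBS mean by -0.02 to 0.29 on VEGFB_DOX arrays and by 0.19 to 0.30 on DOX arrays, against -0.10 to 0.17 on PBS arrays, and its part in the Ccl21 difference was not tested.

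Ccl27a encodes a CCR10 ligand best known from skin. Its probe ILMN_3146018 read 8.64, 8.53, 8.73, 8.93 and 8.92 on the VEGFB_DOX arrays, 9.22, 9.09, 9.05, 9.20 and 9.20 on the DOX arrays and 8.96, 9.24, 9.30, 9.22 and 9.10 on the PBS arrays. The 5 VEGFB_DOX arrays were all lower than any DOX or PBS array, and DOX and PBS overlapped. It fell by 0.40 ± 0.09 against DOX (0.76 times, adjusted p = 0.00598) and by 0.41 ± 0.09 against PBS (0.75 times, adjusted p = 0.00435), and both calls held in all 28 alternatives. The fold of DOX against PBS was -0.01 ± 0.09. ILMN_1216183, the other tested probe, had folds of -0.09 ± 0.07 and -0.16 ± 0.07 (adjusted p = 0.453 and 0.147). Ccr10 was not above background.

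**Figure D3:**
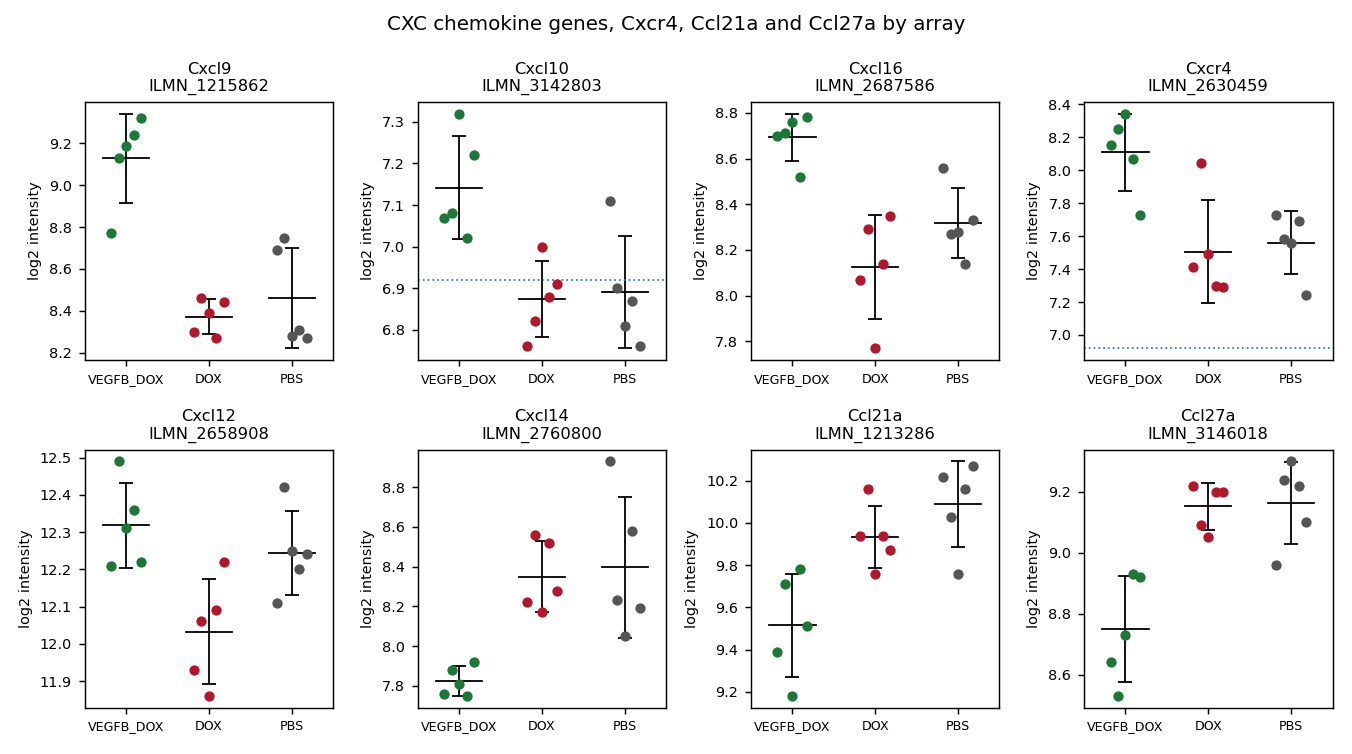
Log2 intensity (y axis) of 1 probe each of Cxcl9, Cxcl10, Cxcl16, Cxcr4, Cxcl12, Cxcl14, Ccl21a and Ccl27a on every array of the VEGFB_DOX, DOX and PBS groups, with the mean and SD of 5 arrays as bars and the background limit dotted where it is in range. Cxcl9 lies highest and Cxcl14 and Ccl27a lie lowest on all 5 VEGFB_DOX arrays, and the DOX and PBS arrays overlap in each panel.

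Cxcl1 encodes a neutrophil attractant that acts through CXCR2. Its probe read 8.31, 8.49, 7.86, 8.30 and 8.23 on the VEGFB_DOX arrays, 7.72, 7.68, 7.58, 7.69 and 8.47 on the DOX arrays and 7.95, 7.64, 7.89, 7.98 and 8.05 on the PBS arrays. DOX 5 stood 0.75 above the next DOX array. The fold of VEGFB_DOX against DOX was 0.41 ± 0.15 (adjusted p = 0.0880) and passed without DOX 5 (0.57, adjusted p = 0.00217), without VEGFB_DOX 3 (0.50, adjusted p = 0.0366) and without the 4 arrays apart (0.57, adjusted p = 0.00449). Against PBS it was 0.34 ± 0.15 (adjusted p = 0.158) and passed without DOX 5 (0.34, adjusted p = 0.0369) or the 4 arrays (0.41, adjusted p = 0.0486). The fold of DOX against PBS was -0.07 ± 0.15 (adjusted p = 0.918). Cxcl2, Cxcl3, Cxcl15, Cxcr1 and Cxcr2 were not above background.

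Cx3cl1 encodes fractalkine, which endothelium presents to CX3CR1 on monocytes and macrophages. It averaged 8.17 ± 0.13 in VEGFB_DOX, 7.92 ± 0.19 in DOX and 8.18 ± 0.19 in PBS hearts (SD, n = 5 each). Its folds of -0.25 ± 0.10 for DOX against PBS and 0.24 ± 0.10 for VEGFB_DOX against DOX did not pass (adjusted p = 0.378 and 0.167). Cx3cr1 averaged 7.82 ± 0.09, 7.70 ± 0.14 and 7.83 ± 0.33 in VEGFB_DOX, DOX and PBS hearts and did not pass either. Ccrl2, which binds chemerin rather than chemokines, averaged 8.14 ± 0.13, 8.40 ± 0.25 and 8.21 ± 0.14, and its fold of VEGFB_DOX against DOX passed only without DOX 2 (-0.34, adjusted p = 0.0394, against -0.26 and 0.157 with all arrays).

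Among the scavenging receptors, Ackr2, which removes inflammatory CC chemokines, averaged 7.98 ± 0.19 in VEGFB_DOX, 7.83 ± 0.14 in DOX and 7.76 ± 0.18 in PBS hearts, and no comparison passed (lowest adjusted p = 0.187). Ackr4, which removes CCL19, CCL21 and CCL25, was read by 3 tested probes. ILMN_2689265 averaged 8.94 ± 0.14, 9.19 ± 0.16 and 9.15 ± 0.15 in VEGFB_DOX, DOX and PBS hearts. Its fold of VEGFB_DOX against DOX, -0.25 ± 0.09 (adjusted p = 0.112), passed without DOX 5 (-0.31, adjusted p = 0.0444), with array weights (-0.28, adjusted p = 0.0289), with the replicate number as a block (-0.25, adjusted p = 0.0387) and with a term for the 4 arrays apart (-0.25, adjusted p = 0.0162). With that term the fold against PBS passed too (-0.26, adjusted p = 0.0135, against -0.21 and 0.181 without it). The other 2 tested probes had folds of 0.08 and 0.12 against DOX and did not pass. Ackr1 (6.92, 6.90 and 6.91), Ccr6 (6.92, 6.95 and 6.96) and Cxcr5 (6.93, 6.92 and 6.88) stayed near the background limit in VEGFB_DOX, DOX and PBS hearts. The ligand genes Ccl20, Ccl22 and Ccl25 did not pass in any comparison, with folds from -0.09 to 0.14.

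The remaining 23 genes had no tested probe: Ccl1, Ccl3, Ccl17, Ccl26, Ccl28, Cxcl2, Cxcl3, Cxcl11, Cxcl13, Cxcl15, Cxcl17, Xcl1, Ccr1, Ccr3, Ccr4, Ccr8, Ccr9, Ccr10, Cxcr1, Cxcr2, Cxcr3, Cxcr6 and Xcr1. With the further untested probes of tested genes these were 38 probes, whose values lay between 6.60 and 7.10. Fitted without the filter, their folds ran from -0.09 to 0.10 for DOX against PBS, -0.09 to 0.08 for VEGFB_DOX against DOX and -0.09 to 0.09 for VEGFB_DOX against PBS. Of these, 0 passed in limma, the lowest adjusted p being 0.664, 0.189 and 0.229. No difference was detected at these intensities. Cxcl5 was not analysed here.

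Genes that work downstream of or around the receptors were counted beside them. Of 20 tested genes of chemokine receptor signalling, 0 passed in DOX against PBS (median fold -0.02), 5 rose in VEGFB_DOX against DOX (median 0.08) and 6 rose in VEGFB_DOX against PBS (median 0.10), with 0 lower. They include the G protein genes Gnai2 (0.59 against DOX) and Gnb1 (0.58) and the migration adaptor gene Elmo1 (0.89). Of 17 tested inducers and transcription factors, 0, 4 and 9 rose in the same 3 comparisons (median folds -0.00, 0.19 and 0.22). Tnfrsf1a, Ifngr1, Rela and Irf1, for a TNF receptor, an interferon gamma receptor chain and 2 transcription factors, rose against DOX. Of 11 tested genes of leukocyte adhesion on endothelium 0, 4 and 7 rose, and Cd99l2 fell against PBS (median folds 0.05, 0.27 and 0.35). Sele, Icam2, Pecam1 and Esam rose against DOX. Sele was above the background limit on only 7 of the 15 arrays. It averaged 7.10 in VEGFB_DOX, 6.78 in DOX and 6.89 in PBS hearts. Sele may thus have been tested only because of the group in which it was high. Of 9 tested chemoattractant genes outside the symbol rule, 1 (Cmtm6) passed, in VEGFB_DOX against PBS. Over all tested probes the shares called were 0.322%, 9.59% and 11.4%.

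Endothelial markers separated VEGFB_DOX hearts from both other groups. Of 8 tested, 7 rose against DOX and 7 against PBS, with median folds of 0.76 and 0.81. Their mean lay 0.58 to 0.76 above the PBS mean on VEGFB_DOX arrays, against -0.10 to 0.06 on DOX and -0.10 to 0.08 on PBS arrays. Cxcl12, Cxcr4, Cxcl16 and Cx3cl1 are expressed by endothelium among other cells, and the part of these markers in their differences was not tested. Of 6 fibroblast markers, 1 (Col1a1) rose against DOX, and against PBS Col1a1 rose and Pdgfra fell. The mean of the fibroblast list differed from the PBS mean by -0.04 to 0.27 on VEGFB_DOX arrays and by -0.26 to 0.02 on DOX arrays, against -0.13 to 0.11 on PBS arrays. Of 6 pericyte and smooth muscle markers, Pdgfrb, Rgs5 and Kcnj8 rose in VEGFB_DOX against DOX (0.64, 0.76 and 0.50). Against PBS Pdgfrb rose (0.47) and Myh11 fell (-0.53), and Kcnj8 fell in DOX against PBS (-0.35). Of 3 erythroid genes, Hbb-bs and Hba-a1 fell in VEGFB_DOX against PBS (-0.81 and -0.87). The part of these markers in the chemokine differences was not tested.

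**Figure D4:**
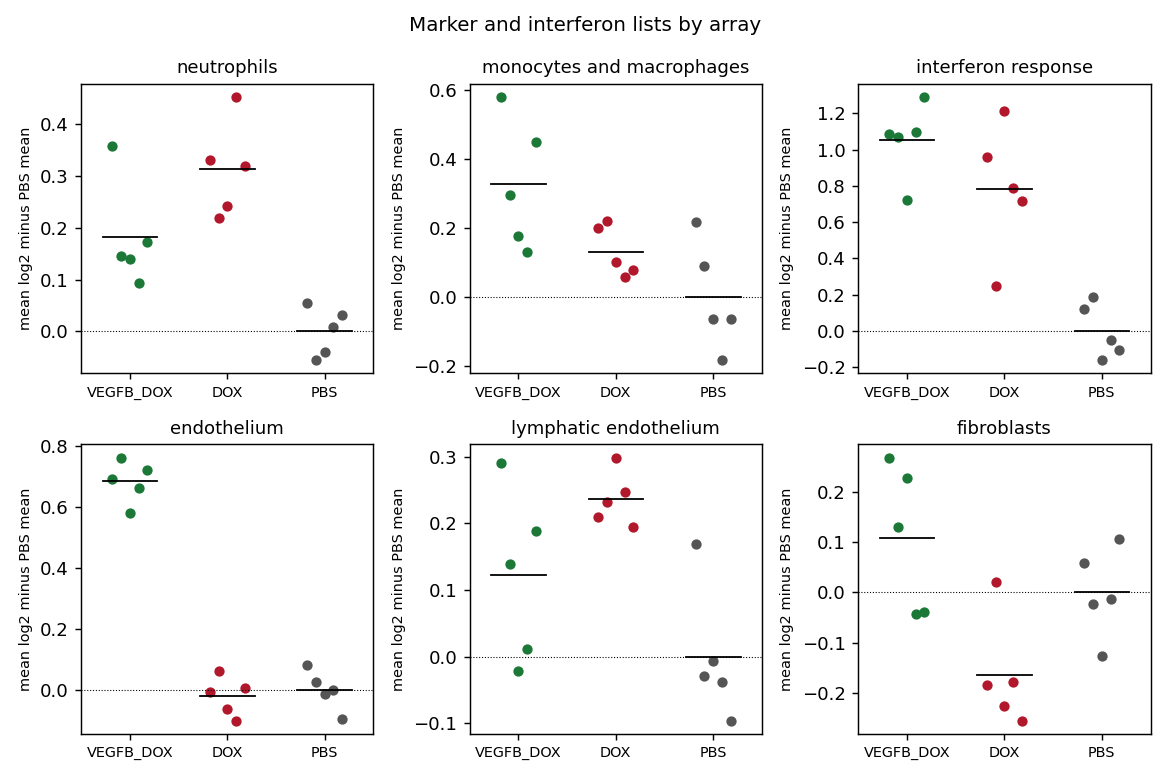
Mean log2 intensity of each list's genes minus the PBS mean (y axis), by array, for 5 cell type marker lists and the interferon response list, in VEGFB_DOX, DOX and PBS, with the group mean as a bar. Neutrophil means are above every PBS array on all 10 drug-injected arrays, but of the 7 tested genes of that list only S100a8 and S100a9 passed. Endothelial means are at 0.58 or more on the VEGFB_DOX arrays only.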

How the data were processed

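Myocardial RNA of 15 samples was hybridised to Illumina bead arrays as biotin-labelled cRNA, per the labels' protocols. The authors deposited log2 intensities, a scale read here from their range, already quantile-normalized, since their sorted values are equal within 0.01. Their software is not given in the sources used here. A raw table with 15 signal columns and 15 detection columns, 30 in all, was not used because its column names match no label. The background was the mode of all values (6.80, SD 0.0729 by reflection of the lower values). One limma 3.58.1 model (R 4.3.3) with a mean per group and a variance trend was fitted to all 15 arrays, with 12 residual degrees of freedom, and checked on simulated arrays. The threshold was an adjusted p of 0.05. Symbols came from the platform annotation: 34885 probes carry 1, 18 several and 10378 none. Named were genes past the threshold, the 10 probes of smallest p in each comparison, and fixed ligand and receptor axes whatever their values. Promoters came from RefSeq, and figures from Python 3.11.15 with matplotlib 3.10.9. Members and gene lists were chosen with earlier results of these data known. Alternatives covered the filter, variance prior, normalization, background, array weights, replicate number and left-out arrays. The labels do not say that each array is a separate animal, so p-values may measure only the spread between these samples.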

Additional observations from a re-analysis of the deposited data

Results flagged for a closer look

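Among 144 sets of 5 arrays (48 probes in 3 groups), 8 values of chemokine or receptor probes stood far from the other arrays of their group, where chance gives about 1 set in 20. In VEGFB_DOX these were Ackr2 on array 3 (8.30, next 7.98), Ccl25 ILMN_2661722 on array 5 (7.15, next 6.96) and Ccl5 on array 2 (7.50, next 7.24). In DOX they were Ccl11 ILMN_2862179 on array 5 (7.23, next 7.06), Ccl5 on array 3, which was low (6.93, next 7.06), Cxcl1 on array 5 (8.47, next 7.72) and Cxcr4 on array 2 (8.04, next 7.49). In PBS it was Ccl9 on array 1 (9.62, next 8.87).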

How the results depend on the processing

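No member fold that passed in any setting changed sign. For DOX against PBS, 1 probe passed; 2 passed with only the 2 groups compared, 0 with the background subtracted, 3 with the replicate number as a block, 4 without DOX 2 and VEGFB_DOX 3, 0 without PBS 4, PBS 5, DOX 5 and VEGFB_DOX 5, 2 with a term for those 4 arrays, and 3 at a threshold of 0.1. Leaving out 1 array gave 0 (without DOX 1) to 4 (without DOX 2). For VEGFB_DOX against DOX, 10 passed, 4 (3 higher and 1 lower, in place of 5 and 5) without DOX 2 and VEGFB_DOX 3, the arrays apart on erythroid genes, and 7 to 11 with 1 array left out. For VEGFB_DOX against PBS, 18 passed, 10 without the 4 arrays, and 13 to 20 with 1 array left out. The settings with the 4 arrays were chosen after seeing the data; the causes were not tested. Each call held in every alternative for 0 of 1, 4 of 10 and 8 of 18 probes, over the alternatives in which a probe was tested. These include the threshold of 0.1, which cannot end a call. They also include fits without 1 array of the group outside the comparison, which leave the fold unchanged. The replicate block gave 13 and 20 calls in the last 2 comparisons. Same-numbered arrays correlated at -0.17 to 0.41, -0.25 to 0.63 and -0.41 to 0.32, and matched their own number best in 1, 2 and 1 of 5 cases. The highest of each range was that of the arrays numbered 5, all of which are among the 4 arrays apart. These correlations cannot tell whether the numbers mark a pairing or a shared processing step, which was not tested. Over all probes, DOX against PBS gave 80 calls, 487 without DOX 2 and 2 without DOX 1. No slide is given, so a slide block was not run. Differences of probes near background may be larger than their folds.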
